A study of Caenorhabditis elegans with 96 samples.

Results

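CB4856 is a wild isolate of the nematode Caenorhabditis elegans from Hawaii, kept as a self-fertilising and therefore nearly isogenic strain. All 7 libraries of this strain were taken from the 96 libraries of the series by the strain name in their titles, 1 from each of batches 2, 3, 4, 6, 7, 8 and 9. The other libraries were 85 recombinant inbred advanced intercross lines, which are homozygous mosaics of CB4856 and the laboratory strain N2, and 4 libraries of N2 itself. Each line had 1 library, between 7 and 19 lines fell in each batch, and N2 was present once in batches 3, 6, 8 and 9. All strains shared the same labelled treatment, Cntrl: parents raised on Escherichia coli OP50 were bleached, larvae hatched overnight without food, and pools of animals grew on E. coli HT115 until an L4 harvest. Since the genotype is the same in all 7 libraries, the differences among them are those between batches of the same strain, in which culture, harvest and library preparation cannot be told apart. The labels do not say whether the cultures of a batch shared a day or a plate of bacteria, and a batch is here only the number in the title.

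In a growing nematode, several gene programmes run on a clock rather than at a constant rate. The cuticle is rebuilt at each moult by collagens and proteases that are transcribed in short waves, sperm are made in the last larval stage of a hermaphrodite, and the adult intestine then secretes yolk proteins for the oocytes. Intestinal genes for immunity, detoxification and lipid use respond to food and microbes, while ribosomes, proteasomes and neurons draw on genes with more even transcription.

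Depth was even. The 7 libraries held between 23022389 and 24001627 gene counts and reads in 18623 to 19178 genes, and between 91.7% and 93.9% of reads fell in genes. No 2 of the 7 agreed within sampling noise: over the 21 pairs, the chi-square of counts per degree of freedom ran from 6.93 to 89.3, and each library was counted as 1 sample. Pearson's r between libraries across 12418 genes lay between 0.96 and 0.99 on the log2 scale, highest for batches 6 and 7. All 7 held transcripts typical of adults beside the labelled L4 stage. The adult collagen gene col-19 was at 1847, 1666, 1757, 2322, 2402, 2097 and 2349 CPM (counts scaled to library size) in batches 2, 3, 4, 6, 7, 8 and 9, and whether some animals had passed the L4 stage was not tested.

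To ask which functions held steady within the strain and which varied, the variance of log2 CPM over the 7 libraries was compared, gene by gene, with that of genes of like mean level. The log2 ratio of the 2, set to 0 for the median gene, is called relative variance. Genes with a mean of at least 1 CPM were ranked, 12418 in all. The 1242 genes of highest relative variance are called variable and the 1242 of lowest are called steady, each 10% by construction, so membership describes these libraries and is not a test. The values at the edges were close, with C34H4.1 inside the variable genes and ule-2 just outside at 2.58 each, and arrd-11 just inside the steady genes at -1.73.

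The median SD over the 7 libraries was 0.18 log2 units for all genes ranked, 0.65 for variable genes and 0.10 for steady genes. Counting error alone would give part of this. The variance was a median of 7.36 times that expected from counting in all genes, 82.4 times in variable genes and 1.09 times in steady genes. Of the 1242 steady genes, 1076 (86.6%) varied less than 2 times as much as counting error, against 14.8% of all genes, so for most of them variation between libraries beyond counting was not detectable at this depth. With each library left out in turn, 602 genes were variable all 7 times and 555 were steady all 7 times.

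**Figure D1:**
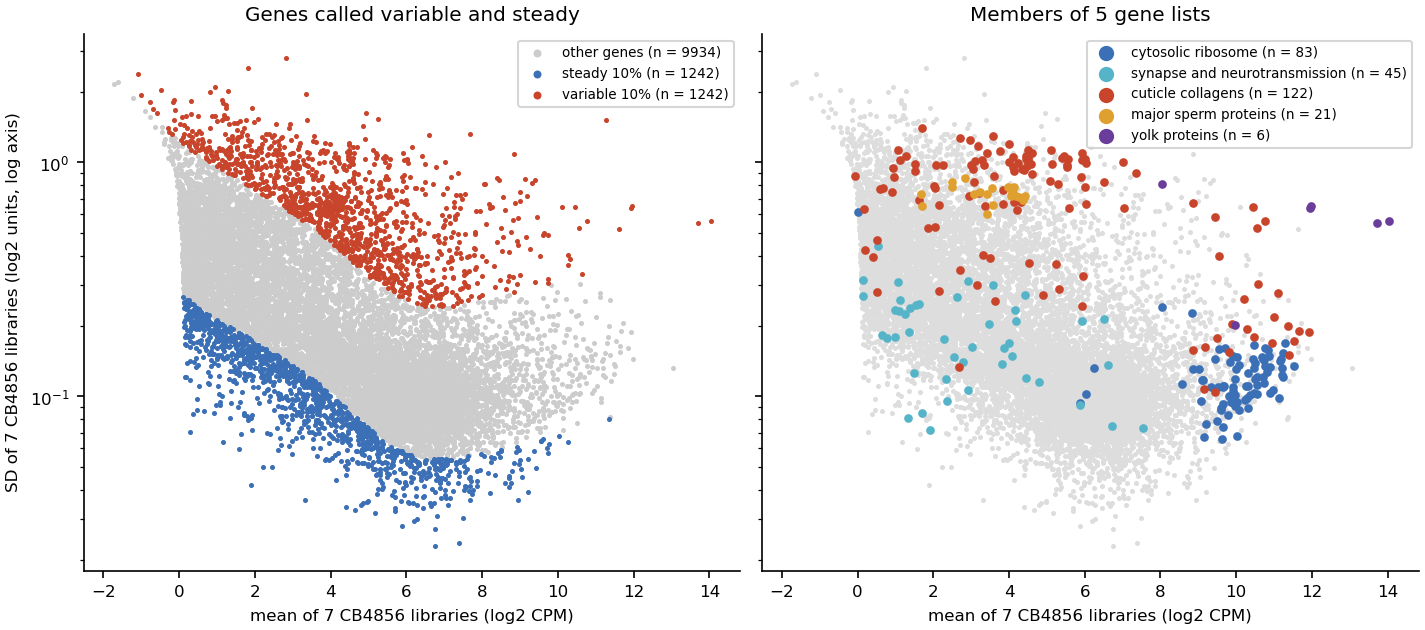
Mean log2 CPM (x axis) against the SD over the 7 CB4856 libraries (y axis, log scale), 1 point per gene of 12418. The left panel colours the 1242 variable and 1242 steady genes, and the right panel the members of 5 gene lists, where 83 cytosolic ribosome genes lie low at high expression and collagens, major sperm proteins and yolk proteins lie high.

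Variable genes spread over named functions unevenly. A total of 51 lists, drawn up from gene symbols, covered 2023 genes ranked, and 381 of the 1242 variable genes fell in at least 1 list. The list of lysozymes and saposins had the highest median relative variance of any list, 4.34, with 7 of 12 members variable. Its members named here are lysozymes, enzymes that attack bacteria, while the saposin-like genes spp-8, spp-2 and spp-24 fell in the antimicrobial peptide list. The median of the lysozyme list was 3.28 without batch 4 and 2.93 without batch 9. In both cases yolk proteins, major sperm proteins and cuticle collagens stood above it. Infection response genes did too without batch 9, at 3.07. Major sperm proteins followed at 3.72 with 19 of 21 members variable, then yolk proteins at 3.53 with 5 of 6 (3 of 6 without batch 2, 3 or 8), and cuticle collagens at 3.52 with 77 of 122. Infection response genes had a median of 3.18 with 20 of 33 members variable, antimicrobial peptides 2.81 with 23 of 41, fat metabolism 2.33 with 32 of 76 and UDP-glucuronosyltransferases 2.096 with 18 of 54. These shares are to be read against the 10% of all genes.

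The list with the lowest median was that of nspc peptides at -1.51, with 4 of 9 members steady and 1 variable. Synapse and neurotransmission genes had a median of -1.04, with 13 of 45 members steady and 0 variable. COP and exocyst trafficking genes had a median of -0.45 with 5 of 34 steady and 0 variable, the nuclear pore -0.43 with 0 of 36 steady and 0 variable, and RNA polymerase II and Mediator -0.45 with 3 of 54 steady and 1 variable. The oocyte and eggshell list had a median of -0.54 with 2 of 39 steady and 2 variable, or 1 variable without batch 2, 8 or 9. The pals family was at -0.55 with 2 of 7 steady, or 0.03 without batch 9, and neuropeptides at -0.38 with 8 of 73 steady, or 0.11 with the median absolute deviation. The steady shares are likewise to be read against 10% of all genes. No member was variable among 83 cytosolic ribosome genes, 69 mitochondrial ribosome genes, 58 spliceosome genes, 33 proteasome genes or 37 germline and meiosis genes. Steady members numbered 2, 5, 2, 1 and 0 in the same order, each share below 10%. The medians of these lists lay close to 0, from -0.29 for the cytosolic ribosome to 0.15 for germline and meiosis, and changed sign under 1 or more alternatives except for the spliceosome at -0.22. Not every housekeeping list was low. Medians were 2.54 for the mitochondrial genome, 1.25 for the CCT chaperonin and 0.81 for translation initiation and elongation. The vacuolar ATPase was at 0.74, aminoacyl-tRNA synthetases at 0.60 and nuclear oxidative phosphorylation at -0.24.

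**Figure D2:**
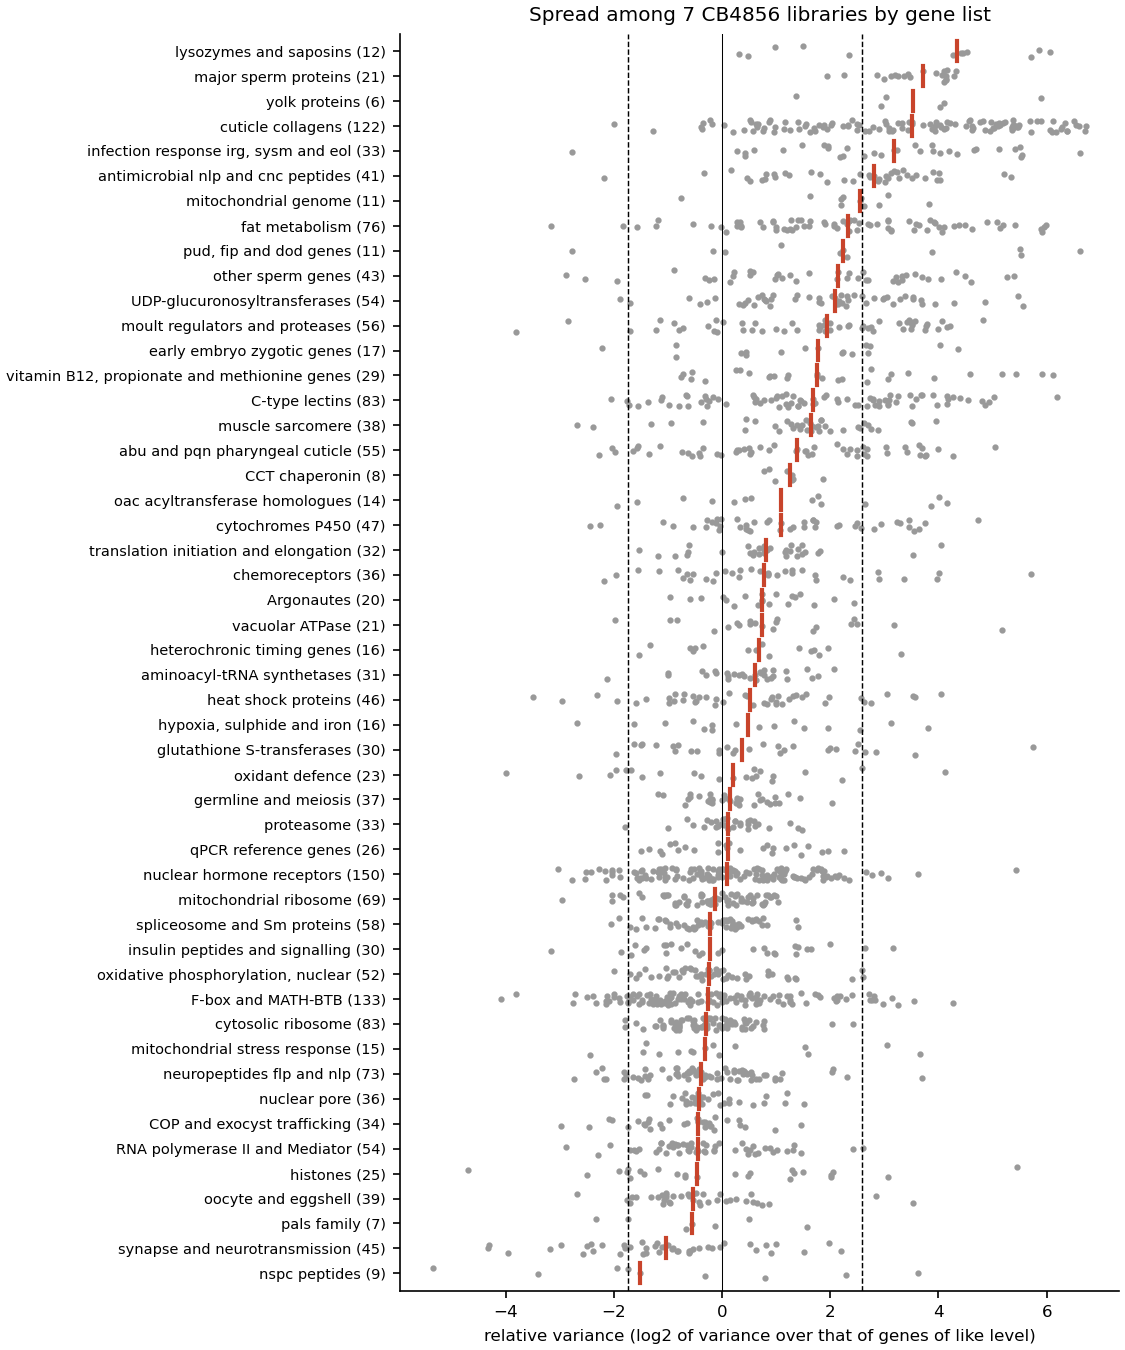
Relative variance (x axis, log2 units) of the members of each gene list with at least 5 genes ranked, 1 grey point per gene, with the list's median as a red bar and the number of genes in brackets. Dashed lines mark the edges of the steady and variable genes at -1.73 and 2.58. Lysozymes, major sperm proteins, yolk proteins and collagens stand at the top, and synapse genes near the bottom.

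The variation was not shared equally by the libraries. Of the sum of squared deviations over all genes, 25.1% lay in batch 9 and 19.5% in batch 3. Batches 2, 4 and 8 held 15.6%, 13.6% and 10.9%, and batches 7 and 6 held 7.94% and 7.30%. Among the 1242 variable genes, the library farthest from the mean was batch 3 on the low side in 366 (29.5%), against 12.3% of all genes, and on the high side in 1, against 16.9% of all genes. Batch 9 was farthest on the high side in 333 (26.8%), against 16.7% of all genes. Batch 4 was farthest on the high side in 137, against 5.23% of all genes, and batch 2 on the low side in 132, against 7.53%.

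**Figure D3:**
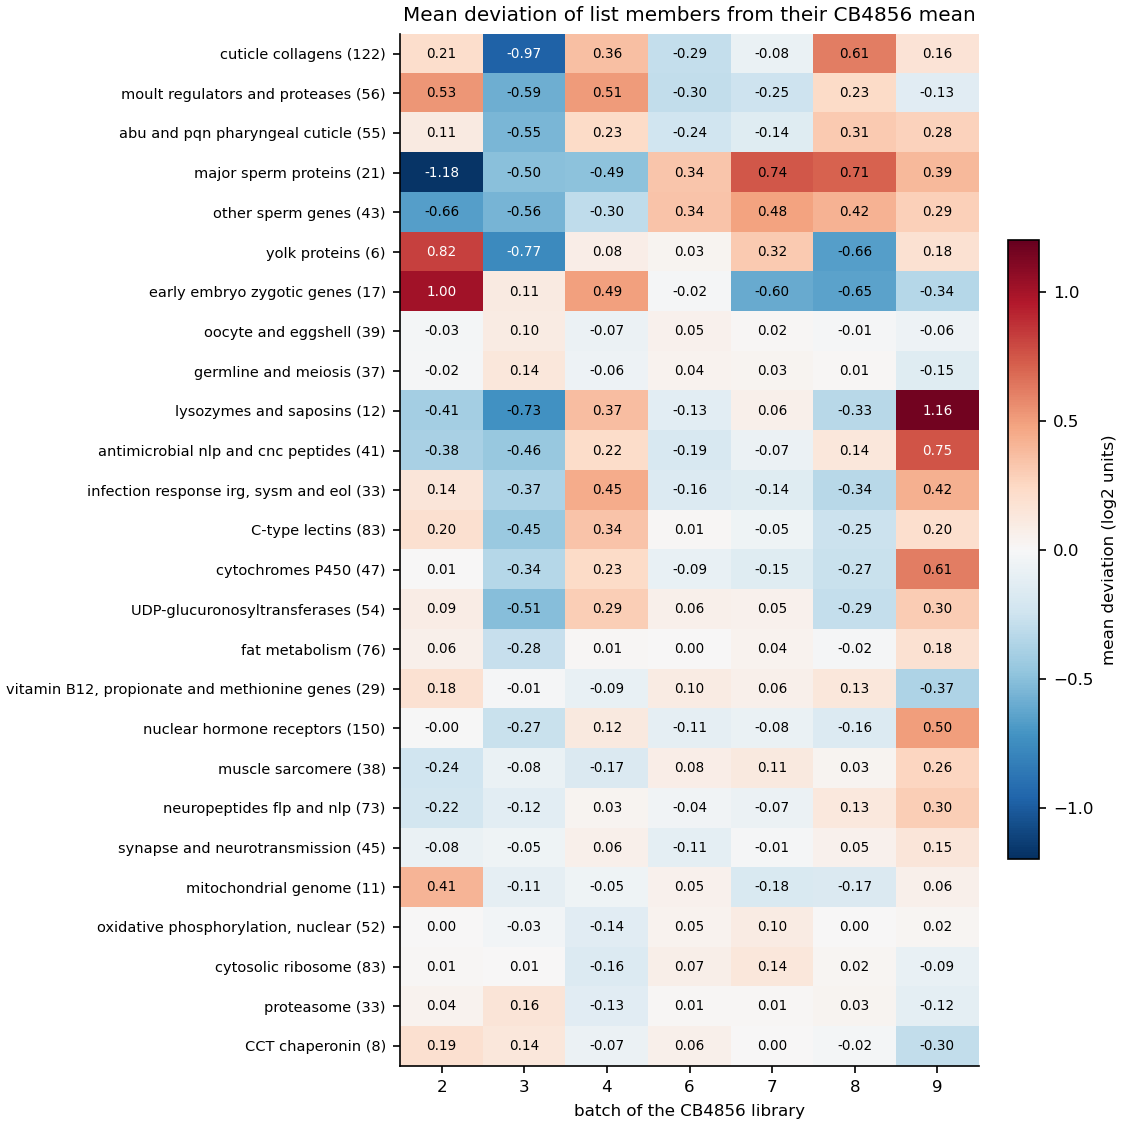
Mean deviation of list members from their own mean over the 7 CB4856 libraries (colour and number, log2 units), for 26 gene lists (rows, number of genes in brackets) and 7 libraries (columns, by batch). Collagens are lowest in batch 3 at -0.97, major sperm proteins in batch 2 at -1.18, and lysozymes highest in batch 9 at 1.16.

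Cuticle collagens, the structural proteins of the worm's outer coat, held more variable genes than any other of the 51 lists. Of 122 ranked, 78 (against 22.2% of all genes) were lowest in batch 3 and 59 (against 9.13% of all genes) were highest in batch 8. The summed level had another order. Over all 175 genes of the list it was 36546, 34991, 35012, 46365, 48168, 44287 and 46800 CPM in batches 2, 3, 4, 6, 7, 8 and 9. Batches 3 and 4 were thus close, and batch 7 was highest. The collagens did not move as 1 block. Over the 7 libraries, 43 of the 77 variable collagens had r of at least 0.9 with dpy-13, 10 had it with col-39, 0 with both and 24 with neither, a description of 7 points with no test.

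Beside many genes with col numbers, the dpy-13 group held dpy-4, dpy-5, rol-6, sqt-1, sqt-3, lon-3, bli-1, bli-2 and bli-6. dpy-13 (WBGene00001074; WBcel235, chromosome IV, 4235614 to 4236710) was at 103.9, 19.9, 119.6, 38.2, 40.6, 136.1 and 59.1 CPM in batches 2, 3, 4, 6, 7, 8 and 9, a range of 6.85-fold with an SD of 1.02 log2 units. Batches 2, 4 and 8 were high and batch 3 low, and all 43 collagens of the group, dpy-13 included, were lowest in batch 3. Of these, 30 were highest in batch 8, 8 in batch 2 and 5 in batch 4. The same order of high and low libraries held for col-73 (17.5 to 143.9 CPM, the highest relative variance of the list at 6.73), dpy-4 (20.6 to 150.4 CPM), dpy-5 (12.7 to 102.1 CPM) and col-77 (19.7 to 149.4 CPM). F41F3.3 (19.6 to 141.9 CPM) is not in the list. At 12.4 CPM in batch 3 and 86.0 CPM in batch 2, sqt-3, a collagen of all cuticle stages, was 1 of the 8 highest in batch 2. It was lower in batch 8 (65.6 CPM) than in batches 2 and 4.

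A second pattern was that of col-39, at 69.7, 46.8, 97.3, 115.3, 239.0, 249.3 and 282.7 CPM in the same order of batches. Here batches 7, 8 and 9 were high and batches 2 and 3 low. col-133, at 76.955, 76.8, 131.3, 151.4, 270.5, 323.9 and 312.9 CPM, had a similar order. Of the 10 collagens in this group, col-39 included, 6 were lowest in batch 3 and 4 in batch 2. Abundant collagens such as col-81 (669.8 CPM in batch 2 and 2211 in batch 7) and col-139 (925.1 CPM in batch 2 and 2479 in batch 7) were also lowest in batch 2 but belonged to neither group. Lowest of the list in relative variance was col-99 at -1.995, with 5.58 to 7.16 CPM, whose exons overlap daf-1.

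The furrow collagens dpy-2, dpy-3, dpy-7 and dpy-8, which build the circumferential furrows of the cuticle, were low in level. dpy-7 was at 6.03, 0.85, 6.07, 1.63, 1.94, 3.096 and 1.2002 CPM, so that batches 2 and 4 stood above the rest. dpy-2 reached 6.81 and 7.25 CPM in batches 2 and 4, with 1.22 to 3.22 CPM elsewhere. Genes of the moult list had this form too. mlt-11, a protease inhibitor needed for moulting, was at 30.5, 2.88, 25.4, 4.15, 5.81, 10.1 and 5.23 CPM, and noah-1, a protein of the apical matrix, at 32.4, 5.72, 23.6, 7.28, 7.92, 11.2 and 7.89 CPM. In both, batches 2 and 4 were separate from the other 5 libraries. Of 56 moult genes, 23 were variable, 30 (against 22.2% of all genes) were lowest in batch 3 and 22 (against 14.7% of all genes) were highest in batch 2. lin-42, the homologue of the circadian gene period and part of the larval clock, was at 24.7, 7.79, 24.2, 11.1, 10.4, 15.2 and 11.4 CPM, again highest in batches 2 and 4.

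Sperm, yolk and embryo genes gave another order of libraries. Major sperm proteins, the cytoskeleton of the crawling sperm, were lowest in batch 2 in 21 of 21 genes (against 15.2% of all genes), and highest in batch 7 in 13 (against 9.31%) and batch 8 in 7 (against 9.13%). Summed over 31 genes they came to 118.7, 188.2, 191.4, 333.9, 453.3, 444.1 and 350.4 CPM in batches 2, 3, 4, 6, 7, 8 and 9. Batches 2, 3 and 4 were thus all below the other 4. These genes are near-identical copies and reads matching several places were left out of the counts, so levels of single members are uncertain. msp-55 had 9.63, 14.8, 15.99, 24.96, 35.5, 37.1 and 27.6 CPM, with a relative variance of 4.31, and msp-10 the lowest of the list, 1.93. Among other sperm genes, 18 of 43 were variable and 24 were lowest in batch 2 (against 15.2% of all genes). ssq-2, from a family of sperm-specific genes, ran from 21.8 CPM in batch 2 to 79.8 CPM in batch 7, while spe-6, a sperm kinase gene, stayed between 5.38 and 6.58 CPM. In pools of animals, fewer cells of a type and less RNA per cell cannot be told apart.

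Yolk protein genes, expressed in the adult hermaphrodite intestine, had their highest value in batch 2 in 6 of 6 (against 14.7% of all genes) and their lowest in batch 3 in 5 of 6 (against 22.2% of all genes). Their summed level was 65622, 22192, 43149, 39837, 48602, 24790 and 49318 CPM, so batch 2 was highest and batches 3 and 8 were lowest. vit-1 was likewise highest in batch 2 and lowest in batches 3 and 8, at 7944, 2272, 4098, 4600, 5622, 2314 and 3684 CPM. vit-3 had the highest relative variance of the 6, 5.89, with 124.5 CPM in batch 3 and 672.5 in batch 2, and vit-4 the lowest, 1.37, with 813.6 to 1253 CPM. The vit genes are similar in sequence, and the level of each 1 alone is uncertain for that reason.

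Genes listed as markers of early embryos inside adults were highest in batch 2 in 11 of 17 ranked (against 14.7% of all genes). Whether the harvests held embryos was not tested. vet-6 was at 22.7, 6.98, 11.6, 5.52, 2.29, 2.04 and 2.70 CPM, and sdz-30 at 11.1, 3.25, 4.67, 1.37, 0.48, 0.65 and 0.86 CPM. In both genes batches 2, 4 and 3 were highest, in that order, the 3 libraries that were lowest in major sperm proteins. Summed over the 47 genes of the list the level was 227.6 to 319.9 CPM, with 7 to 12 genes at 0 counts in a library. Oocyte and germline genes moved little beside these, with median SDs of 0.09 and 0.11 log2 units against 0.66 for the embryo list. Highest of the oocyte and eggshell list in relative variance were cpg-7 and cpg-9, and its highest SD was 0.41. The eggshell gene cpg-4, lowest of that list, stayed between 143.4 and 156.5 CPM. The germ granule helicase gene glh-1, highest of the germline list in relative variance at 2.03, lay between 217.8 and 332.4 CPM. Of 37 germline genes, 26 were highest in batch 3 (against 25.1% of all genes) and 27 were lowest in batch 9 (against 22.6% of all genes).

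Male markers were measured as a check on other cell types, because a culture can hold males. Summed over the 13 genes they came to 15.97 CPM in batch 6 and between 3.33 and 3.92 CPM in the other 6 libraries, with 1 of 13 genes at 0 in batch 6 and 2 to 5 elsewhere. plg-1, the mucin of the copulatory plug, had 8.22 CPM in batch 6, 0 counts in batch 4 and at most 0.31 CPM in any other. mab-3, a regulator of male development, had 3.94 CPM in batch 6 and 0.81 to 1.58 CPM elsewhere. pkd-2 and lov-1, receptors of male sensory neurons, were at 0.73 and 0.34 CPM in batch 6 and at most 0.21 and 0.12 CPM elsewhere. Major sperm proteins were not highest in batch 6 except for 1 of 21. The part of these transcripts in the other results was not tested.

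Intestinal defence genes were set apart by batches 9, 4 and 3. Members of the lysozyme list were highest in batch 9 in 8 of 12 (against 24.6% of all genes). The other 4 were highest in batch 4 (against 10.6% of all genes), and 7 were lowest in batch 3 (against 22.2%). lys-4 was at 56.5, 62.6, 115.2, 93.2, 131.3, 84.6 and 299.96 CPM, so batch 9 stood well above the rest. lys-2 was at 87.1, 44.8, 204.0, 67.9, 61.4, 43.6 and 102.8 CPM, with batch 4 highest. Of 83 C-type lectins, secreted proteins that bind sugars, 32 were variable, 47 were lowest in batch 3 (against 22.2% of all genes) and 31 were highest in batch 9 (against 24.6% of all genes). clec-41 had 61.2, 18.6, 154.9, 32.97, 37.4, 24.6 and 52.3 CPM, and batch 4 was again highest. dod-24, an infection response gene, was at 171.2, 112.9, 280.2, 69.2, 53.5, 53.2 and 46.6 CPM, with batches 4, 2 and 3 above the other 4. Among antimicrobial peptides and saposin-like proteins, spp-8 ran from 29.1 CPM in batch 3 to 121.5 in batch 9, and spp-24 from 3.82 to 5.34 CPM.

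Many of the genes ranked highest stood apart in batch 9. adh-1 (WBGene00010790; V, 11888248 to 11889650), an alcohol dehydrogenase gene whose exons overlap sodh-2, ranked 1 of all genes with a relative variance of 7.45. It was at 74.96, 54.04, 33.6, 99.7, 74.8, 126.8 and 597.6 CPM, a range of 17.8-fold. fmo-2 (WBGene00001477; IV, 10682524 to 10684367), a flavin monooxygenase gene, was at 13.8, 5.52, 0.13, 9.85, 5.86, 5.50 and 152.8 CPM, where the value of batch 4 was 3 counts. Its SD of 2.79 log2 units was the highest of the 12418 genes. icl-1, the enzyme of the glyoxylate cycle that turns fat into carbohydrate, was at 434.9 CPM in batch 9 and 50.4 to 90.8 CPM elsewhere. F45D3.4 (251.9 against 14.7 to 32.2 CPM) and Y39B6A.1 (2049 against 185.4 to 532.9 CPM) were high there as well, and so was the long non-coding RNA tts-1 (288.8 against 14.4 to 60.1 CPM).

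Other genes were low in batch 9. folt-2, a folate transporter gene, had 488.1, 235.7, 330.4, 322.9, 266.2, 143.8 and 30.2 CPM, ranked 2 of all genes. T05E12.6 had 13.7 CPM in batch 9 and 56.4 to 147.6 CPM elsewhere, and F46F2.3 had 27.5 CPM against 108.5 to 239.2 CPM. Several lipid genes were low in the same library, though 16 of 76 fat metabolism genes were lowest there (against 22.6% of all genes). The mean deviation of that list was highest in batch 9, at 0.18 log2 units. elo-6, a fatty acid elongase gene, was at 89.5 CPM against 341.7 to 514.2 CPM, elo-2, another elongase gene, at 81.01 CPM against 262.6 to 438.3 CPM, and fat-6, a stearoyl-CoA desaturase, at 129.8 CPM against 202.9 to 446.5 CPM. Genes of propionate and fatty acid breakdown were low with them, acdh-1 at 98.7 CPM against 358.8 to 606.6, hacd-1 at 38.3 against 154.7 to 213.8 and ech-7 at 15.9 against 63.5 to 93.3 CPM. For hacd-1, ech-7, elo-6, F26F12.3 and Y51A2D.13 the place among variable genes rested on this library, since without it their relative variance was 2.101, 2.35, 2.11, 1.86 and 2.198. Unlike the others, F26F12.3 and Y51A2D.13 were high in batch 9, at 7.95 and 7.38 log2 CPM. Of 76 fat metabolism genes, 32 were highest in batch 9 (against 24.6% of all genes) and 31 were lowest in batch 3 (against 22.2% of all genes). In the same list, acs-4, an acyl-CoA synthetase gene, was steady at 567.6 to 609.6 CPM. Nuclear hormone receptors, transcription factors bound by lipids and other ligands, were highest in batch 9 in 105 of 150 (against 24.6% of all genes), yet 6 were variable and their median was 0.09, or -0.57 without batch 9.

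**Figure D4:**
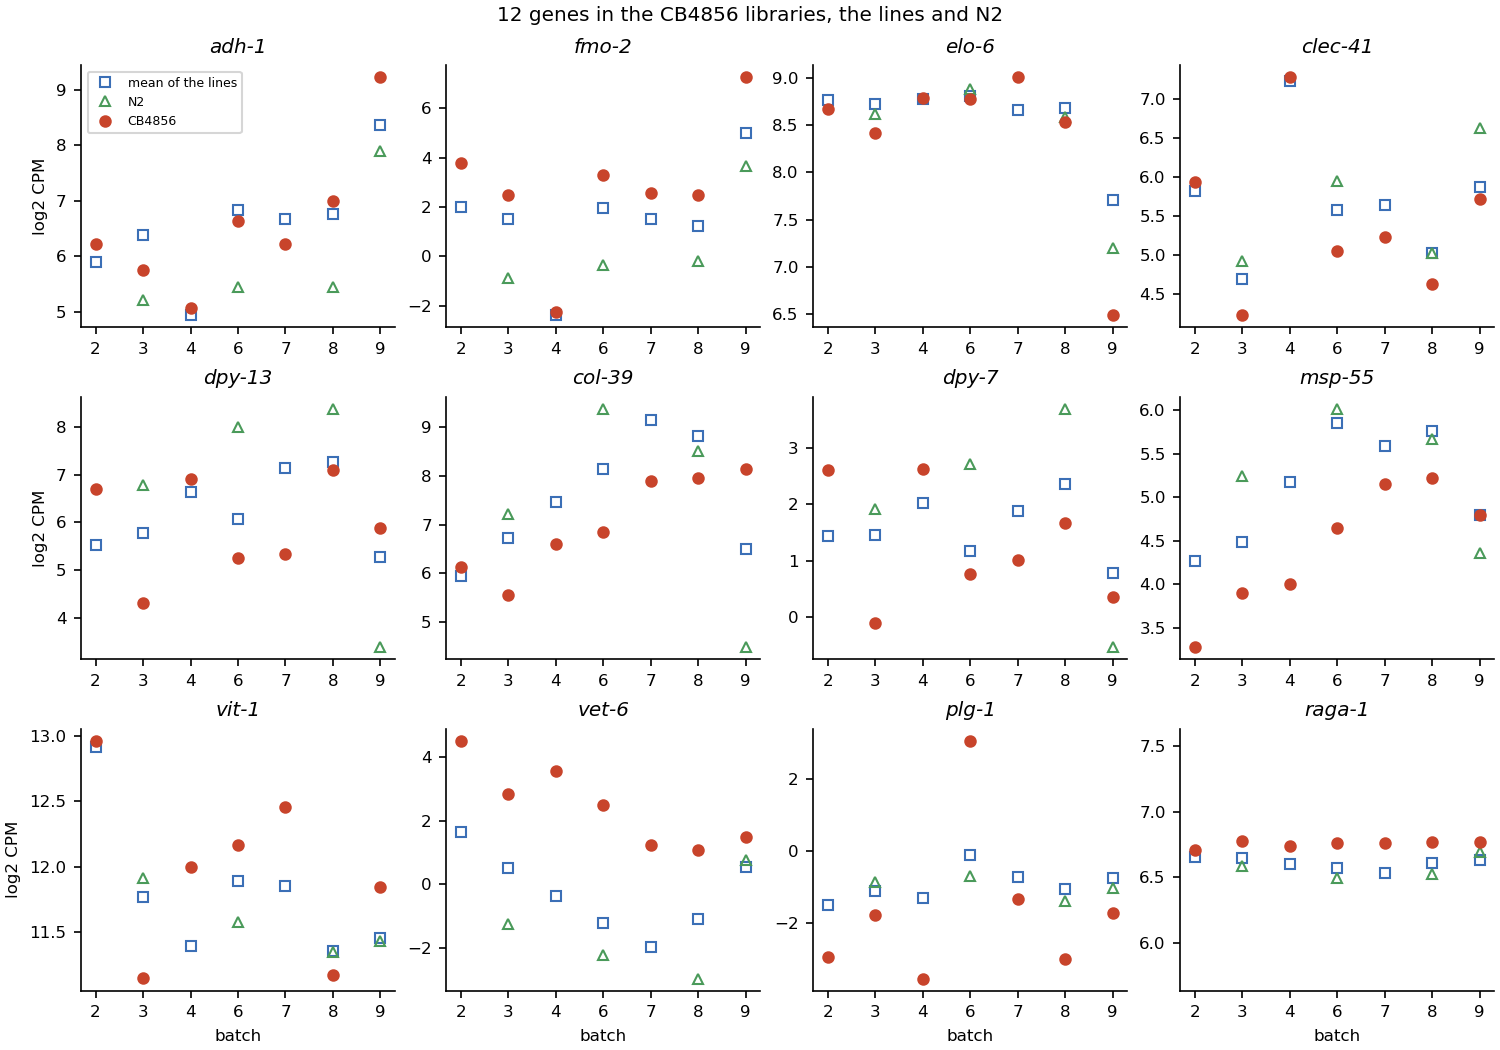
Level of 12 genes (log2 CPM, y axis, scale set per panel) by batch (x axis) in CB4856 (filled red circles, 1 library each), in the lines of the batch (blue squares, means of 7 to 19 libraries) and in N2 (green triangles, 1 library in each of 4 batches). adh-1 and fmo-2 are highest and elo-6 lowest in batch 9 in all 3 kinds of sample, while raga-1 is level throughout.

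Ribosomal RNA genes, which are the target of removal or selection steps in library preparation, varied on their own. rrn-3.1, a gene of the large ribosomal RNA, was at 2091, 2281, 18201, 3071, 1750, 508.8 and 2517 CPM, with batch 4 far above and batch 8 far below the others. rrn-2.1 had 151.0 CPM in batch 4 and 2.16 to 15.9 CPM elsewhere. Beside this, cytosolic ribosomal protein genes were lowest in batch 4 in 66 of 83 (against 10.2% of all genes) and highest in batch 7 in 62 (against 9.31% of all genes). Their summed level ran from 87629 CPM in batch 4 to 110090 CPM in batch 7. The part of ribosomal RNA in that shift was not tested. The members moved by little, with a median SD of 0.12 log2 units, and rps-25 stayed between 977.0 and 1135 CPM.

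Genes encoded in mitochondrial DNA were higher in batch 2 by a mean of 0.41 log2 units over 11 genes, with 4 of 11 variable, 1 without batch 2 and 6 without batch 3, 4 or 9. Nuclear genes of oxidative phosphorylation were at 0.00 in batch 2 and lowest in batch 4, at -0.14. All 8 genes of the CCT chaperonin, which folds actin and tubulin, were lowest in batch 9 (against 22.6% of all genes), and 30 of 33 proteasome genes were highest in batch 3 (against 25.1% of all genes). The mean deviations of these lists there were -0.30 and 0.16 log2 units.

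None of the 12 steadiest genes named by rule was in any of the 51 lists. raga-1, the Rag GTPase that signals amino acids to TORC1, was at 104.8, 109.4, 106.6, 108.8, 108.7, 109.0 and 108.8 CPM, an SD of 0.02 log2 units. nstp-1, a nucleotide-sugar transporter gene, had the lowest relative variance of the 12 genes named by rule, -4.54, with 20.4 to 21.8 CPM. fkb-1, a peptidyl-prolyl isomerase gene, lay between 163.7 and 171.6 CPM, gos-28, a Golgi SNARE gene, between 34.7 and 36.8 CPM and the zinc transporter gene zipt-15 between 57.8 and 60.9 CPM. The other 7 were mcat-1, ZK353.9, popl-5, K10B2.4, trm-2A, mff-2 and C46F11.6, with folds from lowest to highest library of 1.06 to 1.12. The acetylcholine receptor subunit gene unc-29, lowest of the synapse list at -4.32, lay between 2.27 and 2.64 CPM. Since 86.6% of steady genes varied less than 2 times as much as counting error, the order among such genes may reflect counting alone.

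Of 26 genes in common use as references for quantitative PCR, 0 were variable and 0 were steady, and their median relative variance was 0.11, which became -0.28 without batch 4. act-1 and act-3, actin genes of near-identical sequence whose single levels are uncertain, varied most, act-1 from 413.0 CPM in batch 2 to 688.1 CPM in batch 9 and act-3 from 607.4 to 1007 CPM. Lowest in relative variance was unc-16 at -1.50, with 136.3 to 154.3 CPM. pmp-3 lay between 110.1 and 127.3 CPM and cdc-42 between 278.7 and 323.7 CPM.

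Whether the deviations of CB4856 belonged to the batch was tested against the recombinant lines, which the ranking had not used. For each gene, the 7 CB4856 values were correlated with the 7 batch means of the lines. The median r over 12418 genes was 0.54, with r above 0 in 11036 (88.9%). In an exact permutation test over all 5040 assignments of the CB4856 libraries to batches (two-sided, n = 7), p was 0.0002, the smallest that the assignments can give. The highest median r of any other assignment was 0.52. Among variable genes the median r was 0.78, with r above 0 in 1228 of 1242, and among steady genes it was 0.27, with r above 0 in 878. Both groups were chosen on the CB4856 values that enter r. Steady genes varied a median of 1.09 times as much as counting error, against 82.4 times in variable genes. The difference in r between the groups is therefore not a test.

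**Figure D5:**
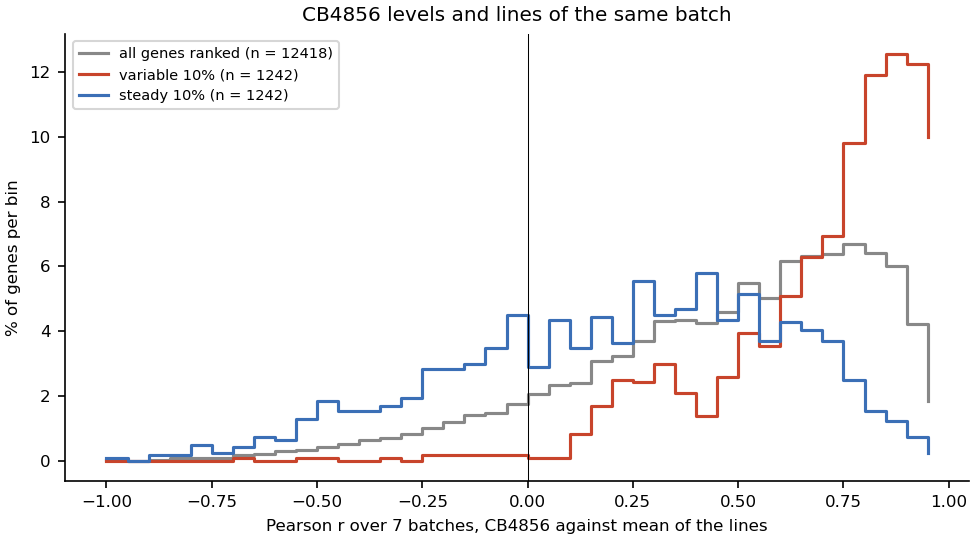
Share of genes (y axis, % per bin of width 0.05) by Pearson's r over 7 batches between the CB4856 library and the mean of the lines of the same batch (x axis), for all 12418 genes and for the 1242 variable and 1242 steady genes. The medians are 0.54, 0.78 and 0.27. Variable and steady genes were chosen on the CB4856 values that enter r.

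The same was seen library by library. Across genes, the deviation of a CB4856 library from the strain's mean had r of 0.54, 0.74, 0.68, 0.38, 0.43, 0.74 and 0.52 with the deviation of the lines of batches 2, 3, 4, 6, 7, 8 and 9. In each batch but 7 this was the best match among the 7, and the library of batch 7 was closer to the lines of batch 6, at 0.57. Genes are not independent replicates, so these values describe the libraries. For the 4 batches that hold N2, the mean r with the N2 library was 0.34, and in an exact permutation test over 24 assignments p was 0.167, where the smallest possible is 0.0417. Its values were 0.42, 0.09, 0.73 and 0.12 in batches 3, 6, 8 and 9. The N2 library of the same batch was the best match for batch 8, while in batches 3, 6 and 9 an N2 library of another batch gave a higher r, at 0.50, 0.18 and 0.12.

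Lists differed in how far they went with the lines. Lysozymes had a median r of 0.89, infection response genes 0.87, the vitamin B12 and propionate list 0.86, major sperm proteins 0.83 (above 0 in 21 of 21) and the cytosolic ribosome 0.80 (above 0 in 83 of 83). Cuticle collagens were at 0.41 and the oocyte list at 0.19. For adh-1, the mean of the lines was 8.37 log2 CPM in batch 9 and 4.93 to 6.84 elsewhere, and N2 had 7.90 against 5.22 to 5.45. For fmo-2, the lines had 4.99 in batch 9 and -2.39 in batch 4, their highest and lowest, as in CB4856. For dpy-13, the lines were highest in batches 7 and 8 at 7.15 and 7.27, whereas CB4856 had 5.35 in batch 7 and 7.09 in batch 8. N2 was at 6.78, 7.99, 8.37 and 3.40 for this gene in batches 3, 6, 8 and 9, a wider span than in CB4856.

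Batch was also tested among the lines alone. In edgeR's quasi-likelihood F test with Benjamini-Hochberg adjustment over 12418 genes, 10492 (84.5%) differed between batches at an adjusted p under 0.05. Of the variable genes of CB4856, 1212 (97.6%) did, and of the steady genes 838 (67.5%). By name, fmo-2 had an adjusted p of 2.19e-24 in the lines, adh-1 4.99e-17, clec-41 9.23e-13, col-39 4.06e-10, vit-1 1.35e-06 and msp-55 3.52e-05 in this edgeR test. The adjusted p was 0.392 for hacd-1, 0.216 for fat-7, 0.249 for raga-1 and 0.570 for nstp-1 in the same edgeR test.

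The main axis of variation among the lines was then set against the CB4856 values. Component 1 of the lines, computed without the parents, had batch means from -26.7 in batch 7 to 32.999 in batch 2. Tested as a covariate of the 7 CB4856 libraries with edgeR's quasi-likelihood test, it gave 0 genes (0%) at an adjusted p under 0.05, with 751 genes at an unadjusted p under 0.05, and DESeq2 gave 5, namely idh-1, Y37D8A.19, WBGene00010966, the collagen gene col-149 and dct-16. The smallest p toward higher levels was that of Y37D8A.19, with a log2 change of 0.19 ± 0.03 (SE) per SD of the component and an adjusted p of 0.818 in edgeR. Toward lower levels it was that of idh-1, an isocitrate dehydrogenase gene, at -0.21 ± 0.04 with the same adjusted p in edgeR. C39B5.2 and the mitochondrial gene WBGene00010966 came next with 0.78 and 0.39, and F48D6.4 and Y15E3A.4 with -0.21 and -0.23, none past the edgeR threshold. Without the library of batch 9, 312 genes (2.51%) passed in edgeR, 27 higher and 285 lower with the component, among them 19 of the 21 major sperm proteins and 21 other sperm genes.

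The spread within the strain was set beside that among the lines, whose genomes differ. The median SD of log2 CPM was 0.18 over the 7 CB4856 libraries and 0.30 over the 85 lines, or 0.27 within batches. In 14.7% of all genes the variance in CB4856 was above that of the lines, and the median log2 ratio of the variances was -1.18. Against the variance of the lines within batches the median log2 ratio was -0.79. Among variable genes, which were chosen on the CB4856 variance, 45.3% were above the lines. Their median log2 ratio was -0.10, or 0.48 against the lines within batches. Across 12418 genes, Spearman's rho of relative variance in CB4856 with the SD of the lines within batches, taken over its trend, was 0.59. With relative variance in the 4 N2 libraries it was 0.48. Of the 1242 variable genes, 608 were also in the highest 10% of N2, and 261 of the steady genes were in its lowest 10%. Collagens had a median SD of 0.78 in CB4856, 1.10 in the lines and 1.80 in the 4 N2 libraries, while yolk proteins had 0.60, 0.53 and 0.17. The N2 values cover batches 3, 6, 8 and 9 alone, without batch 2, where the yolk genes of CB4856 were highest. An SD over the same batches was not computed for CB4856.

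By chromosome, the share of variable genes was 13.8% on X, 13.6% on V, 11.4% on IV, 9.71% on II, 6.23% on I and 5.16% on III, against 10% of all genes. Steady genes ran from 8.78% on IV to 11.1% on III.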

How the data were processed

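RNA sequencing counts from 96 libraries were used, 7 of them CB4856. The authors deposited raw counts of reads for every gene without normalisation, and reads that name no gene in separate totals. Per the submitters' processing notes, FastQC, STAR 2.73a, DESeq2 and the WBcel235 build were used. The annotation release is not given in the sources used here. Both strand columns of counts were near equal (ratio 0.957 to 1.04), so the unstranded column 2 was used and overlapping genes on opposite strands cannot be separated. Reads mapping to several places (3.86% to 5.91% in CB4856) and other reads outside genes, 6.11% to 8.25% in all, stayed out of library sizes and tests. Of 46904 identifiers, 46817 were found in the Ensembl annotation of WBcel235, which gave symbols and positions, counted from 1.

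Counts were TMM-normalised and turned into log2 CPM with a prior count of 2 (edgeR 4.0.16, R 4.3.3). The log2 variance over the 7 libraries was compared with a lowess trend on the mean (span 0.3), then centred on the median gene, a step chosen after seeing the data. Genes with a mean of at least 1 CPM entered. Batch numbers come from the titles. Tests were exact permutation tests over libraries and edgeR's quasi-likelihood test with Benjamini-Hochberg adjustment at 0.05, with DESeq2 1.42.0 as an alternative, tested on simulated data. Nothing says whether the libraries of a strain were separate cultures beyond their batch numbers, so p-values measure the spread between these libraries.

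The members and gene lists were chosen with earlier results of these data known. The list of mitochondrial DNA genes was matched by chromosome, a choice made after seeing the data because symbols did not match. Named genes were the 15 protein-coding genes of highest relative variance at a mean of 5 CPM or more that stayed variable with each library left out, the 5 highest that did not, the 12 lowest at 10 CPM or more, and per list described the 2 highest and the lowest. The other genes named were chosen after their values were seen. Dixon's test, normalisation, filters, prior count, dispersion, a robust spread and left-out libraries were the alternatives tried. Floors and counting errors cover counting only, since reads carry no molecular identifiers.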

Additional observations from a re-analysis of the deposited data

Results flagged for a closer look

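In groups of 4 to 10 samples, a value was picked out when its gap to the nearest other library, divided by the whole range, was above Dixon's 95% critical value for 7 libraries. Of 51 lists examined 5 were picked out, and of 34 named genes 11. Chance alone gives about 1 in 20 groups, and most of the genes had been named for a high relative variance, which such a library raises.

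Among lists, the mean deviation of the 2 ranked male markers in batch 6 was 3.04 log2 units. Genes of mitochondrial DNA were at 0.41 in batch 2, RNA polymerase II and Mediator at 0.12 in batch 3, oxidant defence at 0.18 in batch 9 and fat metabolism at -0.28 in batch 3.

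In batch 9, 9 genes were picked out. Lower than the other 6 libraries were ech-7 at 3.99 log2 CPM, elo-6 at 6.48, hacd-1 at 5.26, F46F2.3 at 4.78 and T05E12.6 at 3.79. Higher were icl-1 at 8.76, F45D3.4 at 7.98, F26F12.3 at 7.95 and Y51A2D.13 at 7.38. In batch 6, plg-1 was at 3.05 log2 CPM and mab-3 at 2.01. What set these libraries apart was not tested.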

How the results depend on the processing

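Of the 1242 variable genes, 1022 to 1242 were shared under another normalisation, prior count, low filter, a running-median trend (chosen after seeing the data) or edgeR's tagwise dispersion, 890 with a mean of at least 5 CPM and 833 with the median absolute deviation. Of the steady genes, 796 were shared with a mean of at least 5 CPM, where fewer genes enter, and 526 with the median absolute deviation. With each library left out, 945 to 1195 variable and 789 to 1028 steady genes were shared, the lowest without batch 9, and without batch 3 the steady count was 793. Lists with a median above 0 numbered 35, and 32 to 38 under the alternatives. The male marker median of 1.97, which rests on 2 genes, was -1.04 to 2.44 with 1 library left out, the lowest without CB4856 replicate 6. Of the 2 genes, plg-1 was ranked only through its level in that library. Of 763 alternative list medians, 532 moved by less than the margin set by the replicates, 230 by more and 1 changed sign beyond it.

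The match with the lines kept its direction and its side of 0.05 under every alternative run, with a median r of 0.46 to 0.58 with 1 library left out and 0.78 in the variable genes alone, a subset chosen on the CB4856 values. The mean r with N2 was 0.19 to 0.51, over too few batches for a p to show stability. The covariate test gave 0 genes in edgeR and 5 in DESeq2, and 0 to 312 with 1 library left out, the highest without batch 9. Genes that differ between batches of lines numbered 9710 to 10658 of 12418, and 12736 of 16030 (79.5%) with edgeR's own low-count filter. The log2 ratio of CB4856 to line variance was -1.56 to -1.07 with 1 library left out, and its alternatives were all chosen after seeing the data. The causes were not tested. No paired analysis was possible because no result here is a test between strains: N2 and CB4856 share batches 3, 6, 8 and 9, but their levels were not compared. Depth limits the steady genes, most of which vary about as much as counting error.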
